A study of Mus musculus with 20 samples.

Results

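The genes described here encode integrins, the chains of laminin, the nidogens and the discoidin domain receptors, the proteins by which kidney cells build a basement membrane and hold on to the matrix around them. They were taken by symbol alone: every gene named Itga or Itgb followed by its chain letter or number, every Lama, Lamb and Lamc chain, and Nid1, Nid2, Ddr1 and Ddr2. This gave 41 genes of the 47729 in the count files. RNA was sequenced from mouse kidney cells that had been digested out of the tissue and sorted with magnetic beads for Sca-1 and that the submitters describe as mesenchymal stem cell-like. Roxadustat inhibits the prolyl hydroxylases that mark hypoxia-inducible factors for degradation. The 6 groups were control cells and roxadustat cells straight after isolation (day 0, 2 libraries each), after 7 days of culture (4 libraries each) and after 21 days of culture (4 libraries each). Fresh roxadustat cells came from mice injected intraperitoneally with 33 mg/kg for 7 days, and fresh control cells from untreated mice. Cultured roxadustat cells were kept with roxadustat in the medium and cultured control cells without it, all at 20% oxygen. The labels carry 1 treatment text for every library, so they do not tell whether the cultured roxadustat cells also came from injected mice. They give no strain, sex or age, and do not say whether replicates were separate animals or cultures, so the p-values measure only the spread between these libraries.

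Integrins are receptors made of an alpha and a beta chain that span the cell membrane and link matrix outside to actin inside. The pairing sets what is bound: some alpha chains with Itgb1 take laminin, others take collagen, and the alpha v chain with its several beta partners takes proteins that carry the RGD motif, among them fibronectin, vitronectin, osteopontin and the latent form of TGF-beta. Laminins are cross-shaped trimers of an alpha, a beta and a gamma chain that form the first network of a basement membrane, and nidogens tie that network to collagen IV. In the kidney, tubule epithelium is known for Lama5 and Lama1, for Itga6 and Itga3 and for Itgb6, while interstitial fibroblasts are known for Lama2, Itga11, Itga8 and Ddr2.

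The sum of counts ran from 8502011 to 19903160 per library, and 18731 genes were tested, among them 40 of the 41 members. Levels are CPM, counts brought to a common library total by TMM scaling, given as mean ± SD over the libraries of a group (n = 2 at day 0 and 4 in culture). RPKM, which is CPM divided by the exon length in kilobases, is used where genes are set against each other, and the share of a chain within its family does not depend on scaling. Markers of cell types also differed between the groups. Those of epithelium (12 genes, Epcam and Cdh1 among them) summed to 3378 to 3465 CPM in fresh control, 2683 to 2822 in fresh roxadustat, 221 to 230.3 and 509 to 529 in control and roxadustat at day 7, and 16.7 to 19.9 and 426 to 439 at day 21. Markers of fibroblasts (12 genes, Pdgfra and Col1a1 among them) summed to 275 to 464, 1579.8 to 2673, 11707 to 12376, 7566 to 8621, 52190.4 to 55153 and 2767 to 3984 CPM in the same order. The epithelial markers were higher in roxadustat than in control cells in 11 of 12 genes at day 7 and in 12 of 12 at day 21, and the fibroblast markers lower in 7 of 12 and 12 of 12. None of these 24 genes was at 0 in any group. Fewer cells of a type and less RNA per cell cannot be told apart in bulk libraries, and the part of these marker shifts in the results below was not tested. Ly6a, which encodes Sca-1, was found in every group but differed between the arms. It stood at 523 ± 38.4 CPM in fresh control and 691 ± 33.3 in fresh roxadustat cells. In control and roxadustat cells it stood at 163 ± 6.58 and 502 ± 23.3 CPM at day 7 and at 178 ± 18.9 and 506 ± 25.8 at day 21. The mesenchymal marker Pdgfrb stood at only 3.97 to 6.30 CPM in fresh cells. In control and roxadustat cells Pdgfrb stood at 255 ± 9.01 and 115 ± 9.12 CPM at day 7 and at 739 ± 43.0 and 120 ± 4.74 at day 21. Endothelial markers ran from 41.0 to 49.5 CPM in roxadustat cells of day 7 to 313 to 356 in control cells of day 21. Control libraries of day 21 lay in 2 close pairs, replicates 1 and 2 against 3 and 4.

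Because roxadustat acts on hypoxia-inducible factors, the core sequences these factors are known to bind were looked for in the 250 bases before the annotated start of each gene, as RefSeq gives them on GRCm38.p6. Of the 41 members 26 had such a window. The letters searched were ACGTG and GCGTG on both strands, and 38.6% of all 27025 windows held at least 1 match, against 6 of the 26 members (23.1%). The windows held a match in 1 of 4 members that were higher with roxadustat on both culture days and in 3 of 9 that were lower on both. The 4 windows below overlap no annotated exon and belong to genes with large differences described further on. They are written 5′ to 3′ along the gene, with the match in capitals where there is one. A match is a description of letters and not a binding site.
Itga2, chr13:114932101-114932350, reverse strand: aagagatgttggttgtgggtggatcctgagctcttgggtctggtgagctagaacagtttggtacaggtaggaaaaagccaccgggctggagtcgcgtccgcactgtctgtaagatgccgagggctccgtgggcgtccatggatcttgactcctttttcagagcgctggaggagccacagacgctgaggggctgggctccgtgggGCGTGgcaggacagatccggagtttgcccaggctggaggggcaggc
Itgb5, chr16:33829415-33829664, forward strand: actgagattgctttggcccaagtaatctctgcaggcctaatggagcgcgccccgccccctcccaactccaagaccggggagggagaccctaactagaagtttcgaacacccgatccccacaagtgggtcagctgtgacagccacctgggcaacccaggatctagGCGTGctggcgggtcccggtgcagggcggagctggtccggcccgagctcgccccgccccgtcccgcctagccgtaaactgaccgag
Itga5, chr15:103366792-103367041, reverse strand: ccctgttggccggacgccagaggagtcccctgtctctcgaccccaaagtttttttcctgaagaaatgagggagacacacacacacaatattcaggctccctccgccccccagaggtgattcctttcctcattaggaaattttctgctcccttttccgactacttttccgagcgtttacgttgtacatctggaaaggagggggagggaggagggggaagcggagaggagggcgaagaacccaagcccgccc
Lama5, chr2:180225860-180226109, reverse strand: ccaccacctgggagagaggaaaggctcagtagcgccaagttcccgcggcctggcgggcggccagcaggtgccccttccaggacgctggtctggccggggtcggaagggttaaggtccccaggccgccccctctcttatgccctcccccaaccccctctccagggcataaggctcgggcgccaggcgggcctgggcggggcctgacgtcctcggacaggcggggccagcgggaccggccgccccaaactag
The windows of Itga2 and Itgb5 hold 1 match each, and those of Itga5 and Lama5 hold none. With roxadustat Itga2 was lower at day 7 and higher at day 21, and Itgb5 was lower on both days. These genes were picked with their differences known, and a link between a match and a difference was not tested.

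After culture the arms differed in most of these genes. Each of the chains named above for tubule epithelium (Lama5, Lama1, Itga6, Itga3 and Itgb6) was higher with roxadustat at day 21 and each of those named for fibroblasts (Lama2, Itga11, Itga8 and Ddr2) lower. These were named with the values known, so this split was fixed by the choice and tests nothing. Ddr1, also a receptor of epithelium, was not called at day 21 (125 and 124 CPM in control and roxadustat cells). At day 7 Lama1, Itga3 and Itgb6 were higher and Itga11 and Itga8 lower. Itga6 was lower on that day, Lama2 slightly higher, and Lama5 and Ddr2 were not called. At day 7, 12 of the 40 tested members were higher and 18 lower in roxadustat cells (edgeR quasi-likelihood test, Benjamini-Hochberg adjusted p under 0.05), against 24.1% of all tested genes higher and 23.6% lower. Here and below, a value ± SE with an adjusted p after it in brackets is a log2 fold change from this test, roxadustat against control unless 2 days are compared. The median log2 fold change was -0.20 over the members and 0.03 over all genes. At day 21, 17 members were higher and 19 lower, against 30% and 32.9% of all genes, with medians of -0.41 and 0. Of the day 7 calls 7 rises and 8 falls were at least 2-fold, against 7.14% and 6.13% of all genes, and of the day 21 calls 12 and 15, against 15.6% and 12.6%. At day 0 only 2 members were higher and 4 lower, against 2.73% and 4.11% of all genes, with medians of -0.15 and -0.01. Scaling by library size alone moved the median of all genes at day 21 up by 0.35 on the log2 scale and the share of higher calls over all genes from 47.7% to 72.5%, and gave 18 members higher and 19 lower. At day 0 it gave 2 members higher and 4 lower, with the share of higher calls over all genes at 57.2% in place of 39.9%.

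**Figure D1:**
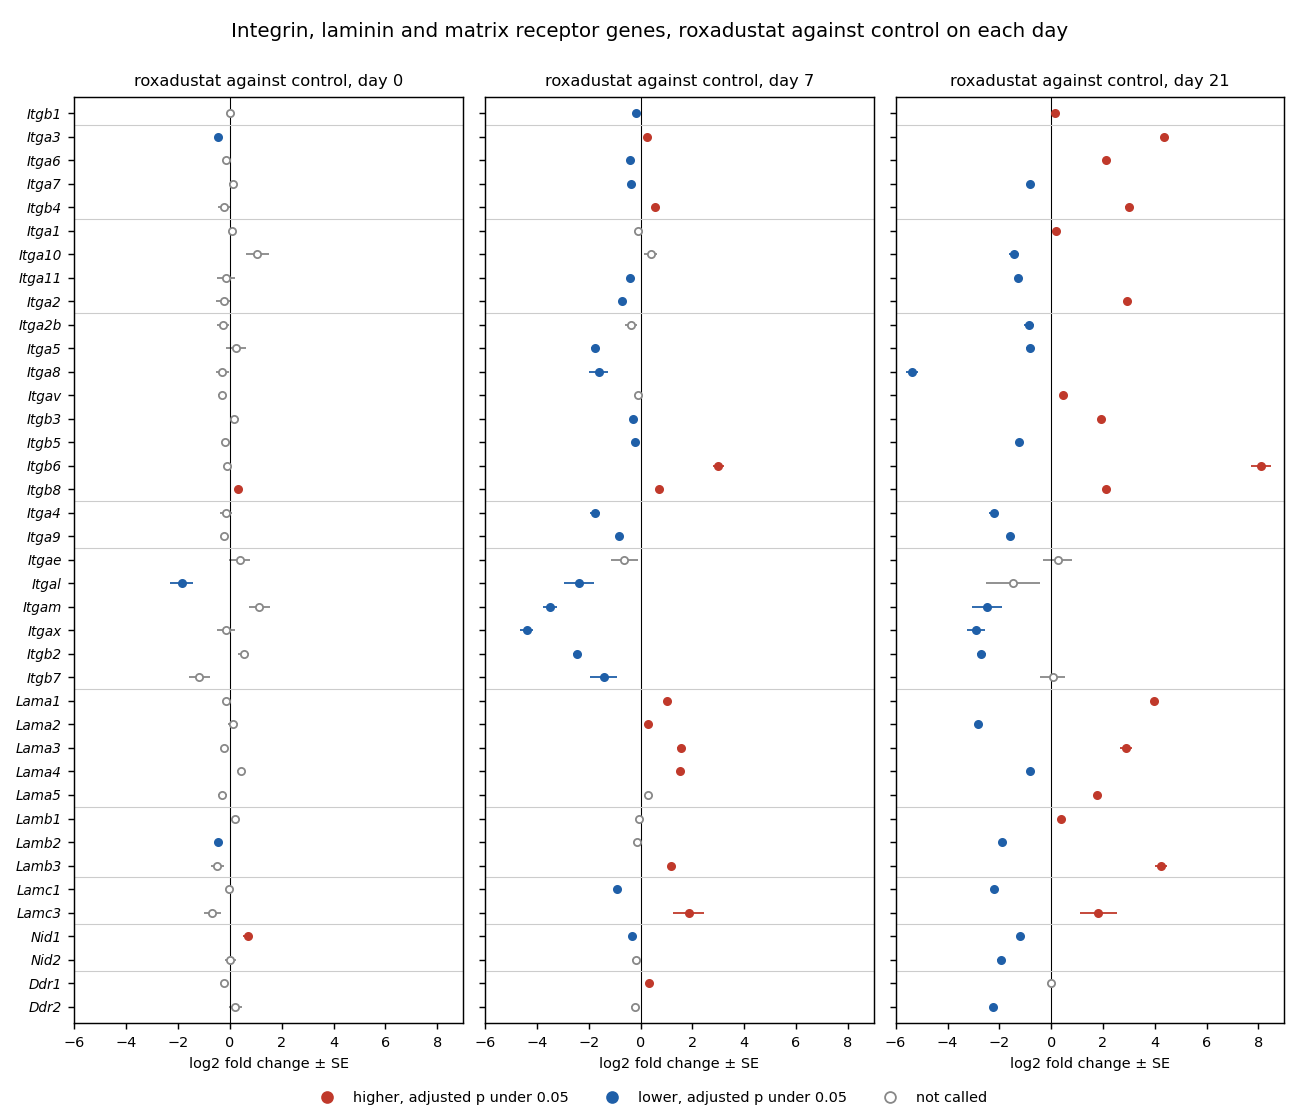
Log2 fold change ± SE of roxadustat against control for the members (rows, in blocks by role) at day 0, day 7 and day 21 (panels), with filled points for adjusted p under 0.05. Few points leave the zero line at day 0, and at day 21 the points spread from -5.37 for Itga8 to 8.09 for Itgb6, whose control group holds only 2 counts.

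The laminin alpha chains, which carry the binding sites for cell receptors, changed places between the arms. At day 7, 4 of the 5 were higher with roxadustat and none lower, and at day 21, 3 were higher and 2 lower. In GENCODE M21 (GRCm38), Lama2 spans chromosome 10, 26980036 to 27619758, on the reverse strand and Lama5 chromosome 2, 180176373 to 180225859, on the reverse strand. Lama2, the chain of muscle and fibroblast basement membranes, read 463, 461, 491 and 515 CPM in control and 68.5, 68.3, 68.4 and 67.0 CPM in roxadustat libraries at day 21. Every control library lay far above every roxadustat library (log2 fold change -2.83 ± 0.11, adjusted p = 5.09e-15, edgeR). At day 7 the same gene read 57.6, 52.5, 56.3 and 61.9 CPM in control and 64.4, 70.3, 67.2 and 77.1 in roxadustat libraries, a small rise (0.29 ± 0.10, adjusted p = 0.0286). That call was lost with DESeq2's size factors (adjusted p = 0.062) and without control replicate 1, 2 or 3 or roxadustat replicate 2 or 4 (adjusted p from 0.0542 to 0.0903). Lama1, a chain of tubule and embryonic basement membranes, read 19.3, 19.3, 18.7 and 21.4 CPM in control and 36.4, 37.6, 43.6 and 42.8 in roxadustat libraries at day 7. At day 21 it read 2.33, 1.80, 2.79 and 3.09 and 39.7, 41.3, 36.1 and 39.3 CPM. The groups did not overlap on either day, and Lama1 was higher with roxadustat on both (1.02 ± 0.09, adjusted p = 8.99e-11, and 3.99 ± 0.12, adjusted p = 3.25e-21). Between the days its control level fell (-2.99 ± 0.13, adjusted p = 1.5e-17).

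Lama5, the main alpha chain of mature kidney basement membranes, read 77.7, 85.2, 115 and 108 CPM in control and 368, 297, 324 and 338 CPM in roxadustat libraries at day 21. It was higher with roxadustat in every library (1.78 ± 0.13, adjusted p = 1.03e-09), while the 2 pairs of control libraries stood apart. At day 7 the ranges met, with 122, 134, 118 and 128 CPM against 131, 134, 167 and 188 CPM (0.31 ± 0.12, adjusted p = 0.0512, not called). Lama3, found in the laminin of epithelial anchoring complexes, read 2.59, 2.17, 1.95 and 1.99 CPM against 7.06, 5.76, 5.45 and 7.19 at day 7 and 0.553, 0.3, 0.479 and 0.703 against 4.15, 3.61, 4.77 and 3.05 at day 21. It was higher with roxadustat on both days (log2 fold changes 1.56 and 2.89), from levels far below the 81.0 ± 3.42 CPM of fresh control cells. Lama4, a chain of vessel and mesenchymal basement membranes, went in opposite directions. It read 23.2, 21.3, 24.5 and 23.6 CPM in control and 69.8, 61.9, 70.3 and 64.8 in roxadustat libraries at day 7 (1.53 ± 0.10, adjusted p = 1.35e-11), but 67.4, 62.1, 60.6 and 62.2 and 34.3, 34.6, 35.8 and 38.4 at day 21 (-0.82 ± 0.10, adjusted p = 1.77e-07).

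Expressed per length, these shifts gave each arm a different leading chain at day 21. In fresh control cells Lama5 made up 52.1% ± 0.494 of the summed RPKM of the 5 alpha chains, Lama3 23.9% ± 0.455 and Lama1 17.6% ± 0.86. At day 7 Lama5 led in both arms, at 59.0% ± 2.04 in control and 48.1% ± 3.32 in roxadustat cells. After 21 days Lama2 held 67.9% ± 1.35 in control cells and Lama5 19.4% ± 2.44. In roxadustat cells of the same day Lama5 held 71.6% ± 1.88 and Lama2 10.3% ± 0.665, with Lama1 at 9.97% ± 0.918. The family as a whole came to 43.5 ± 2.89 RPKM in control and 40.7 ± 2.56 in roxadustat cells, so the sums differed by less than the shares.

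**Figure D2:**
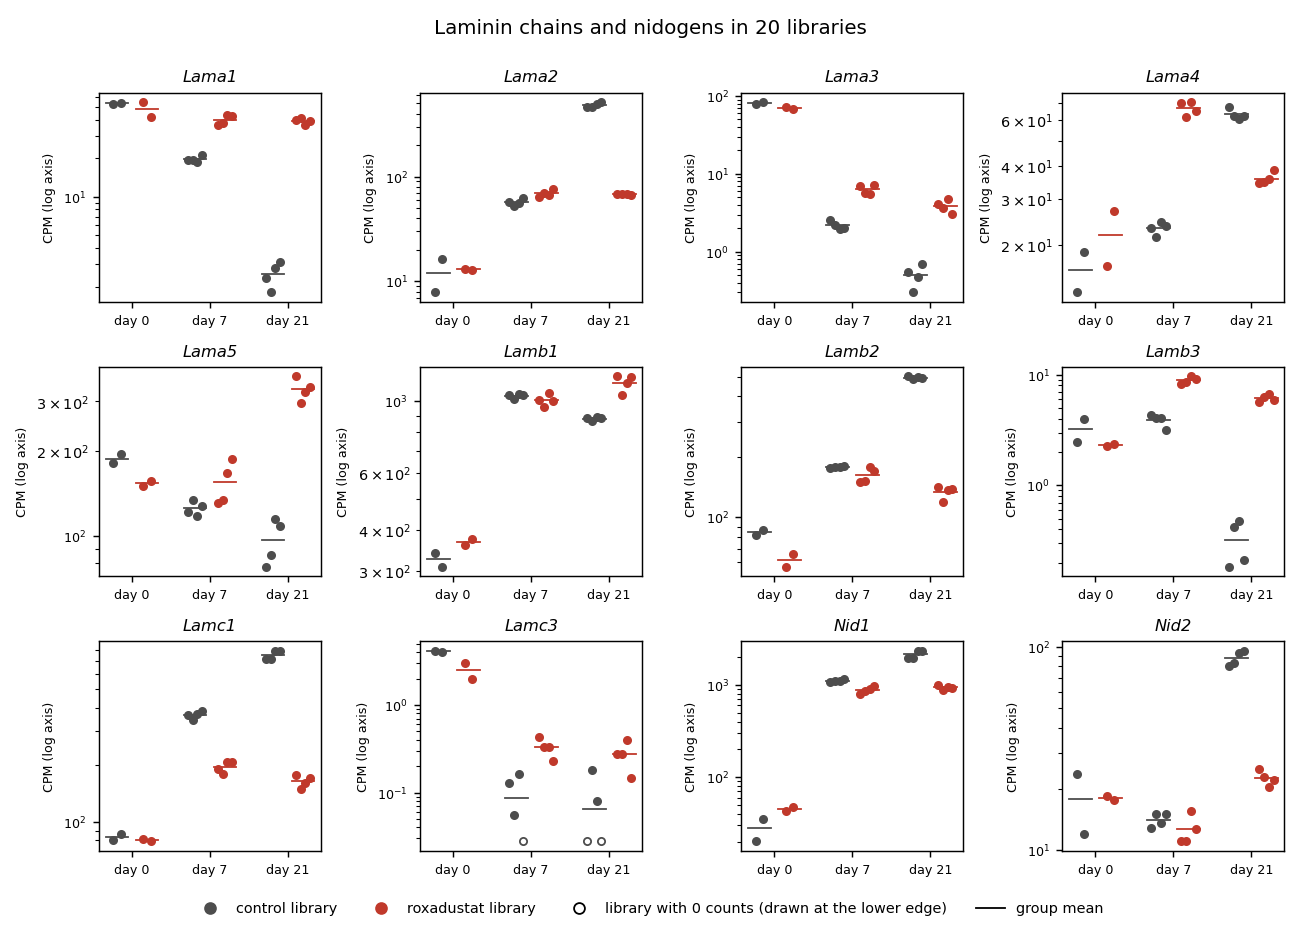
CPM (log axis) of 12 laminin and nidogen genes in each of the 20 libraries by day, control in grey and roxadustat in red, with a bar at each group mean and an open circle at the lower edge for 0 counts. At day 21 Lama2, Lamb2, Lamc1, Nid1 and Nid2 stand higher in every control library, and Lama1, Lama3, Lama5 and Lamb3 in every roxadustat library.

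Among the beta and gamma chains, Lamb1 and Lamc1 are the common partners of most laminins, Lamb2 is the beta chain of the glomerular and neuromuscular basement membranes, and Lamb3 joins Lama3 in epithelial anchoring. Lamc1 read 366, 342, 372 and 383 CPM in control and 189.7, 179, 206 and 206 CPM in roxadustat libraries at day 7, and 721, 721, 796 and 794 and 178, 149, 161 and 169.7 at day 21. It was lower with roxadustat in every library of both days, by more at day 21 (-0.91 ± 0.06, adjusted p = 5.64e-13, and -2.21 ± 0.06, adjusted p = 5.44e-22). Lamb2 was lower with roxadustat at day 21, not called at day 7 and lower in fresh cells. Its 4 control libraries of day 21 read 503, 488, 502 and 494 CPM and its roxadustat libraries 142, 119.7, 136 and 138 (-1.89 ± 0.06, adjusted p = 1.45e-20), whereas at day 7 176, 178, 178 and 180.2 stood against 151, 151, 178 and 171 CPM (-0.13 ± 0.06, adjusted p = 0.0763, not called). Lamb1 was the most even of the beta chains, at 881 ± 12.2 CPM in control and 1135 ± 66.0 in roxadustat cells of day 21 (0.37 ± 0.05, adjusted p = 5.66e-07) and with overlapping libraries at day 7 (1012 to 1046 against 959 to 1057 CPM).

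Lamb3 read 4.34, 4.07, 4.06 and 3.17 against 8.26, 8.54, 9.65 and 9.23 CPM at day 7 and 0.184, 0.42, 0.479 and 0.211 against 5.65, 6.33, 6.66 and 5.90 CPM at day 21. It was higher with roxadustat on both days (1.19 and 4.23), and the day 21 control libraries held only 3, 7, 6 and 3 counts. Lamc3, a rarer gamma chain, had 6 and 27 counts over control and roxadustat libraries at day 7 and 4 and 16 at day 21. It was called higher on both days (adjusted p = 0.0106 and 0.0289, edgeR), and the day 21 call was lost without control replicate 1 (adjusted p = 0.096) or 4 (0.0823) or roxadustat replicate 2 (0.0547) or 3 (0.0636). The day 7 call was lost without roxadustat replicates 1 and 2 (0.0862).

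By share of summed RPKM, Lamb2 held 47.9% ± 0.217 of the beta chains in control and 16.0% ± 0.315 in roxadustat cells of day 21, with Lamb1 at 52.1% ± 0.218 and 83.3% ± 0.294.

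The nidogens, the cross-linkers between laminin and collagen IV, were lower with roxadustat at day 21. Nid1 read 1930.0, 1965, 2324 and 2335 CPM in control and 997, 872, 943 and 935 CPM in roxadustat libraries (-1.19 ± 0.11, adjusted p = 2.64e-09). At day 7 it read 1085, 1091, 1098 and 1169 against 795, 859.5, 906 and 971 CPM, a smaller fall (-0.33 ± 0.10, adjusted p = 0.0121) that was lost without roxadustat replicates 1 and 2 (adjusted p = 0.145). Nid2 read 80.4, 83.2, 93.3 and 95.3 CPM in control and 25.2, 22.9, 20.4 and 22.1 in roxadustat libraries at day 21 (-1.95 ± 0.14, adjusted p = 2.28e-10) and overlapped at day 7 (12.9 to 15.0 against 11.1 to 15.6 CPM, -0.17 ± 0.15, adjusted p = 0.406). Both nidogens were thus higher in each control library of day 21 than in any roxadustat library of that day. A stretch of 8.45% of the exon bases of Nid2 is shared with Rtraf, and the libraries were not stranded. Rtraf had 19107 counts in all libraries against 9749 for Nid2.

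Itgb1 is the beta chain shared by the laminin, collagen and many RGD receptors, and it differed little between the arms. It read 3556, 3614, 3565 and 3648 CPM in control and 3260.3, 3168, 3198 and 3064 CPM in roxadustat libraries at day 7 (-0.18 ± 0.05, adjusted p = 0.00573). At day 21 it read 2617, 2519, 2328 and 2437 and 2755, 2690.2, 2791 and 2805 CPM (0.16 ± 0.05, adjusted p = 0.0112). The sign of this small difference changed between the days, and the calls were lost without roxadustat replicates 3 and 4 of day 7 (adjusted p = 0.0627) or control replicates 3 and 4 of day 21 (0.129). The day 7 call was also lost with scaling by library size alone (adjusted p = 0.096, edgeR) and the day 21 call without the filter on low counts (0.136). By RPKM no other integrin chain was as abundant in any cultured group, and several differed by far more.

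The laminin-binding alpha chains Itga3 and Itga6, receptors for the Lama5 and Lama3 laminins, separated the arms at day 21. Itga3 spans chromosome 11, 95044474 to 95076801, on the reverse strand. It read 22.7, 26.7, 31.6 and 28.0 CPM in control and 594, 511, 548 and 554 CPM in roxadustat libraries, the difference with the smallest p of any member (4.35 ± 0.08, adjusted p = 1.99e-26). At day 7 it had been at 358, 367, 347 and 365 CPM in control and 407, 405, 464 and 436 CPM in roxadustat libraries (0.25 ± 0.06, adjusted p = 0.00152, and adjusted p = 0.066 without roxadustat replicates 3 and 4). The arms were thus within a narrow distance at day 7, and the control level then fell (-3.73 ± 0.07, adjusted p = 9.97e-25) while the roxadustat level rose slightly (log2 fold change 0.37). Itga6 read 95.8, 102, 103 and 104 CPM in control and 75.1, 79.8, 77.2 and 72.8 in roxadustat libraries at day 7, and 19.3, 21.5, 23.2 and 22.5 and 93.8, 95.8, 98.2 and 90.5 at day 21. It was lower with roxadustat at day 7 (-0.41 ± 0.05, adjusted p = 3.81e-07) and higher at day 21 (2.13 ± 0.06, adjusted p = 1.1e-21), with no overlap on either day. Itgb4, which pairs only with Itga6 and anchors hemidesmosomes, read 6.99, 7.36, 5.46 and 6.33 against 9.08, 8.64, 10.1 and 10.9 CPM at day 7 and 3.13, 3.72, 3.43 and 2.53 against 30.7, 21.0, 23.7 and 26.8 CPM at day 21. It was higher with roxadustat on both days (0.57 ± 0.13, adjusted p = 0.000521, and 2.99 ± 0.14, adjusted p = 6.09e-17). Itga7, the laminin receptor of muscle, was lower on both days, at 15.4 ± 0.949 against 12.1 ± 0.996 CPM and then 10.4 ± 1.40 against 5.94 ± 0.359 CPM (log2 fold changes -0.35 and -0.81).

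The summed RPKM of Itga3, Itga6 and Itga7 was 76.0 ± 1.64 in control and 84.9 ± 4.94 in roxadustat cells at day 7, and 8.45 ± 0.858 and 108 ± 5.81 at day 21. Within it Itga6 held 82.5% ± 1.68 in fresh control cells, and Itga3 held 82.7% ± 0.7 and 88.3% ± 0.766 at day 7. At day 21 Itga3 was at 56.3% ± 2.46 in control and 89.6% ± 0.733 in roxadustat cells. At day 21 the laminin alpha chains Lama1, Lama3 and Lama5 and the laminin-binding integrin chains Itga3, Itga6 and Itgb4 were higher with roxadustat. Lama2, Lama4 and Itga7 were lower, and a link between these chains was not tested. Of the 4 laminin-binding chains tested, 3 were higher and 1 lower.

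**Figure D3:**
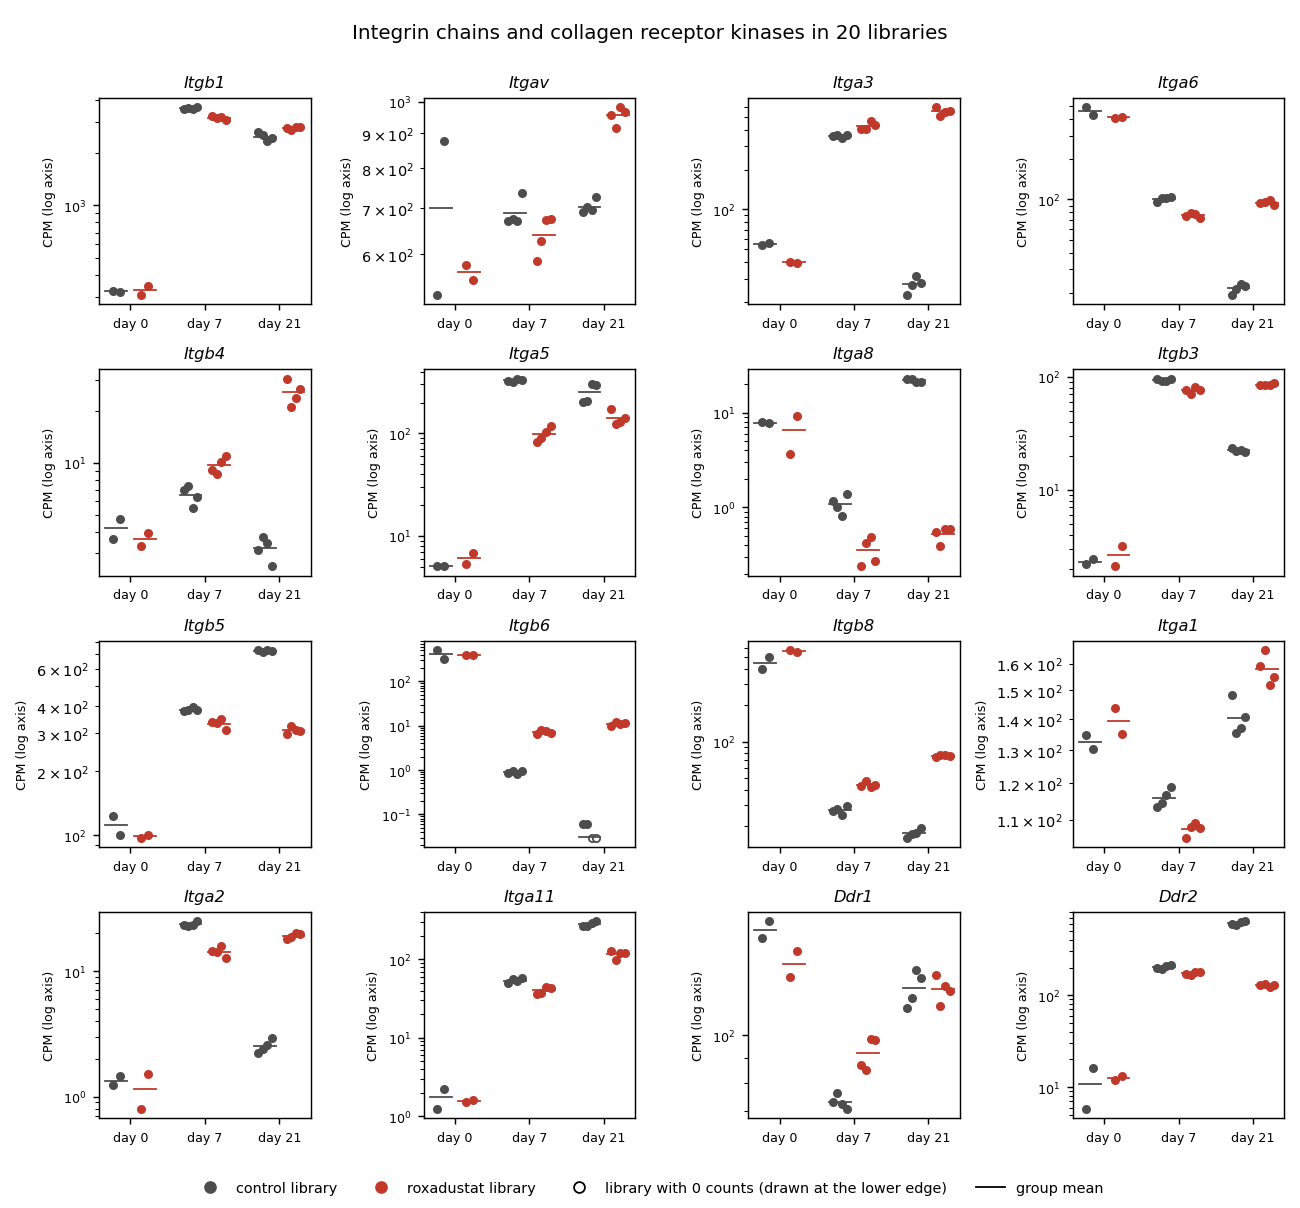
CPM (log axis) of 14 integrin chains and both discoidin domain receptors in each of the 20 libraries by day, control in grey and roxadustat in red, with a bar at each group mean and an open circle at the lower edge for a library with 0 counts. Itga3, Itga6, Itgb3, Itgb6 and Itgb8 stand higher in every roxadustat library of day 21, and Itga8, Itgb5, Itga11 and Ddr2 in every control library of that day.

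The collagen-binding alpha chains split. Itga11, a fibroblast receptor for fibrillar collagen, read 269, 268, 296 and 306 CPM in control and 127, 98.2, 121 and 119 CPM in roxadustat libraries at day 21 (-1.29 ± 0.08, adjusted p = 2.4e-13). At day 7 it read 49.6, 55.6, 52.8 and 57.3 and 36.7, 37.6, 44.8 and 43.8 CPM (-0.40 ± 0.08, adjusted p = 0.000282), so it was lower with roxadustat in every library of both days. Itga2, the collagen receptor of epithelium and platelets, read 23.4, 22.7, 23.2 and 24.9 CPM in control and 14.4, 14.1, 15.7 and 12.8 in roxadustat libraries at day 7, and 2.21, 2.40, 2.56 and 2.95 and 18, 18.8, 20.2 and 19.6 at day 21. It was lower with roxadustat at day 7 (-0.73 ± 0.08, adjusted p = 3.55e-08) and higher at day 21 (2.92 ± 0.11, adjusted p = 8.5e-19), and what changed between the days was mostly the control level. Itga1, a collagen IV receptor of mesangial and endothelial cells, stayed within a narrow band, from 108 CPM in roxadustat cells of day 7 to 158 in those of day 21, with 116 and 140.4 CPM in control cells of the same days. Its difference at day 7 was not called (-0.11 ± 0.05, adjusted p = 0.0549) and at day 21 was small (0.17 ± 0.05, adjusted p = 0.0021). The day 21 call of Itga1 was lost without the filter on low counts (adjusted p = 0.0837, edgeR). Itga10, a cartilage collagen receptor, was low, at 1.02 ± 0.309 and 1.36 ± 0.188 CPM at day 7 and at 5.90 ± 1.10 CPM in control and 2.23 ± 0.49 in roxadustat cells of day 21 (-1.43 ± 0.20, adjusted p = 3.56e-07), and 33.5% of its exon bases overlap Gm42957, which had 22 counts in all libraries.

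Of the summed RPKM of these 4 chains, Itga1 made up 91.8% ± 1.24 in fresh control cells. At day 21 Itga11 made up 86.0% ± 0.748 in control and 66.0% ± 2.89 in roxadustat cells, Itga1 11.7% ± 0.933 and 24.9% ± 2.56, and Itga2 0.548% ± 0.0404 and 7.86% ± 0.662. The discoidin domain receptors are collagen-activated tyrosine kinases outside the integrin family, Ddr1 of epithelium and Ddr2 of mesenchyme. Ddr2 read 594, 586, 621 and 635 CPM in control and 131, 133, 124 and 129 CPM in roxadustat libraries at day 21 (-2.24 ± 0.13, adjusted p = 8.55e-11), after 199.8, 195, 206 and 213 and 171, 165, 179 and 179 CPM at day 7 (-0.23 ± 0.13, adjusted p = 0.152, not called although the ranges did not meet). Ddr1 read 73.1, 76.3, 72.5 and 70.6 CPM in control and 86.8, 85.0, 98.1 and 98 CPM in roxadustat libraries at day 7 (0.33 ± 0.06, adjusted p = 0.000115). By day 21 the arms overlapped, at 114, 119, 136 and 131 and 133, 115, 126 and 123 CPM, and Ddr1 was not called under TMM scaling.

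Among the RGD receptors, the alpha v chain Itgav was not called at day 7 and rose modestly with roxadustat at day 21, when its beta partners moved in both directions. Itgav read 671, 674, 670.0 and 735 CPM in control and 585, 626, 672 and 674 CPM in roxadustat libraries at day 7 (-0.10 ± 0.10, adjusted p = 0.4, not called), and 690.1, 701, 696 and 726 and 956, 915, 982 and 967 at day 21 (0.44 ± 0.10, adjusted p = 0.000375). Itgb5, a vitronectin receptor chain, read 732, 719, 734 and 728 CPM in control and 299, 326, 310.0 and 307 CPM in roxadustat libraries at day 21 (-1.23 ± 0.05, adjusted p = 1.36e-17). At day 7 the fall had been small, from 380.3, 385, 399.6 and 383 to 337, 333, 348 and 311 CPM (-0.22 ± 0.05, adjusted p = 0.00101). Itgb3, the partner of alpha v in osteopontin and vitronectin binding, went the other way at day 21, with 23.3, 22.0, 22.3 and 21.8 CPM in control and 83.8, 83.4, 83.7 and 86.9 CPM in roxadustat libraries (1.92 ± 0.06, adjusted p = 1.04e-20). At day 7 it was slightly lower with roxadustat (93.1 ± 2.72 against 76.2 ± 4.31 CPM, -0.29 ± 0.05, adjusted p = 6.83e-05).

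Itgb8 and Itgb6 form the receptors with alpha v that are known to release TGF-beta from its latent complex, Itgb6 in epithelium. Itgb6 spans chromosome 2, 60598292 to 60722643, on the reverse strand. Itgb8 read 26.8, 27.5, 24.7 and 29.3 CPM in control and 42.6, 47.5, 41.8 and 43.9 CPM in roxadustat libraries at day 7 (0.70 ± 0.07, adjusted p = 1.99e-09), and 16.1, 17.3, 17.6 and 19.2 and 74.6, 77.8, 77.4 and 76.8 CPM at day 21 (2.13 ± 0.07, adjusted p = 5.67e-20). It was higher with roxadustat in every library of both days. Itgb6 read 0.841, 0.948, 0.811 and 0.966 CPM in control and 6.39, 8.02, 7.69 and 6.78 CPM in roxadustat libraries at day 7 (3.00 ± 0.22, adjusted p = 1.91e-10). At day 21 control libraries held 1, 1, 0 and 0 counts and roxadustat libraries 142, 215, 111 and 241, or 9.66, 11.9, 11 and 11.8 CPM. By summed counts this is a ratio of 335 (exact 95% interval 92.5 to 2774, counting error only), and the fitted value depends on the prior count. Both genes stood far below their fresh levels, which were 449 ± 71.3 CPM for Itgb8 and 419 ± 133 CPM for Itgb6 in control cells.

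Of the summed RPKM of Itgb3, Itgb5, Itgb6 and Itgb8, fresh control cells held 44.3% ± 8.55 as Itgb6, 31.4% ± 8.88 as Itgb8 and 24.0% ± 0.392 as Itgb5. At day 21 Itgb5 held 97.4% ± 0.0199 in control and 79.3% ± 0.563 in roxadustat cells. Itgb3 held 1.80% ± 0.0468 and 13.0% ± 0.498, and Itgb8 0.755% ± 0.0572 and 6.30% ± 0.102. Among these partners of alpha v the shares were therefore more mixed in roxadustat than in control cells at day 21, though Itgb5 led in both. Itgb1, also a partner of alpha v, is left out of this sum. It stood above each of them, at 607 ± 30.1 RPKM in control and 676 ± 12.5 in roxadustat cells of day 21.

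**Figure D4:**
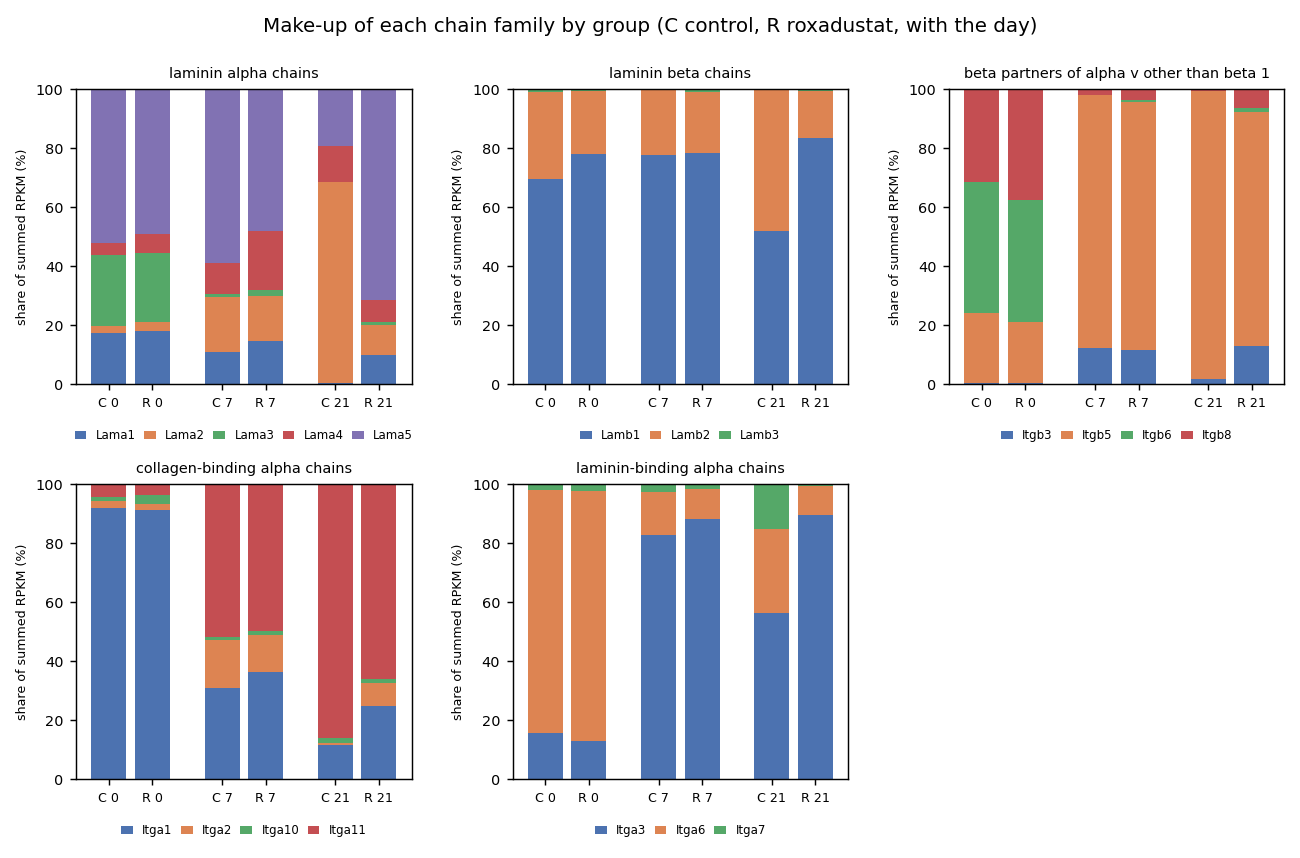
Stacked bars of the mean share (percent of summed RPKM) of each chain in 5 families, for control (C) and roxadustat (R) cells of day 0, 7 and 21. At day 21 the laminin alpha bar is mostly Lama2 in control cells (67.9%) and mostly Lama5 in roxadustat cells (71.6%).

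The other RGD-binding alpha chains were lower with roxadustat at day 21. Itga5, the fibronectin receptor chain, read 322, 319.8, 343 and 331 CPM in control and 82.2, 89.3, 103 and 117 CPM in roxadustat libraries at day 7 (-1.75 ± 0.15, adjusted p = 5e-08). At day 21 it read 201, 206, 303 and 293 and 173, 124, 130.2 and 142 CPM (-0.81 ± 0.15, adjusted p = 0.000129). Every roxadustat library lay below every control library on both days, and control replicates 1 and 2 of day 21 lay nearest to them. Itga8, the nephronectin receptor needed for kidney development and a marker of mesangial and interstitial cells, read 22.8, 23.0, 21.0 and 21.1 CPM in control and 0.544, 0.389, 0.596 and 0.59 CPM in roxadustat libraries at day 21. The roxadustat values rest on 8, 7, 6 and 12 counts (-5.37 ± 0.23, adjusted p = 3.85e-17). At day 7 it was low in both arms, 1.16, 1.00, 0.811 and 1.40 against 0.24, 0.425, 0.491 and 0.271 CPM (-1.61 ± 0.36, adjusted p = 0.000513). The 8 markers of smooth muscle and mesangial cells, Acta2 and Myh11 among them, summed to 8535 to 8934 CPM in control and 2918 to 2985 in roxadustat libraries at day 7, and to 3564 to 4144 and 1265 to 1409 at day 21. With roxadustat 6 were lower and 1 higher at day 7 and all 8 were lower at day 21, none was at 0 in any group, and their part in the differences of Itga8, Itga7, Itga1 and Lama2 was not tested. Itga2b, the platelet fibrinogen receptor chain, stood at 4.05 ± 0.682 CPM in control and 2.23 ± 0.619 in roxadustat cells of day 21 (-0.86 ± 0.20, adjusted p = 0.000583) and overlapped at day 7 (1.45 to 2.33 against 1.25 to 1.85 CPM). Platelet markers gave summed levels of 2.79 to 9.26 CPM over all libraries.

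Itga4 and Itga9, which bind fibronectin splice forms, tenascin and VCAM-1, were lower with roxadustat on both days. Itga9 read 35.8, 35.2, 36.8 and 38.4 CPM in control and 20.7, 20.7, 20.8 and 20.1 CPM in roxadustat libraries at day 7, and 59.3, 60.0, 62.1 and 58.7 and 19.6, 19.6, 20.6 and 19.5 at day 21. The 4 libraries of each group lay close together and the groups far apart (-0.83 ± 0.05, adjusted p = 5.04e-13, and -1.60 ± 0.06, adjusted p = 6.43e-20). Itga4 read 3.95, 3.18, 3.25 and 4.03 against 1.20, 1.23, 0.654 and 1.13 CPM at day 7 and 8.17, 8.16, 7.67 and 9.27 against 2.18, 1.55, 0.994 and 2.16 CPM at day 21 (-1.75 ± 0.20, adjusted p = 2.5e-08, and -2.22 ± 0.18, adjusted p = 1.03e-11). A stretch of 8.04% of the exon bases of Itga4 is shared with Cerkl.

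The leukocyte chains, Itgb2 with its alpha partners and Itgb7 with Itgae, were low in all groups. At day 7, 5 of the 6 tested were lower with roxadustat, and at day 21 Itgb2, Itgax and Itgam. Itgb2 read 11.5, 11.9, 11.1 and 12 CPM in control and 2.26, 2.36, 1.74 and 2.08 CPM in roxadustat libraries at day 7, and 8.66, 6.90, 7.03 and 5.83 and 1.16, 0.888, 1.19 and 1.18 at day 21 (-2.45 ± 0.14, adjusted p = 5.84e-14, and -2.69 ± 0.18, adjusted p = 2.51e-13). Itgax, a chain of dendritic cells and macrophages, read 7.64, 7.75, 7.84 and 9.07 against 0.24, 0.189, 0.491 and 0.588 CPM at day 7 and 2.70, 1.80, 2.32 and 1.90 against 0.408, 0.333, 0.398 and 0.0983 CPM at day 21. Neither gene had overlapping groups in culture, and Itgax had the steepest fall of the tested members at day 7 (-4.40 ± 0.25, adjusted p = 2.69e-14). Itgam, the myeloid chain, read 3.30, 2.84, 2.70 and 2.95 CPM in control libraries of day 7 and held 7, 5, 3 and 6 counts in the roxadustat libraries (-3.49 ± 0.28, adjusted p = 3.13e-11). At day 21 its counts were 3, 11, 4 and 5 in control and 2, 0, 1 and 1 in roxadustat libraries (-2.46 ± 0.58, adjusted p = 0.000574), and 68.7% of its exon bases are shared with Gm49368, which had 0 counts. Itgal, the chain of lymphocytes, had 33 counts over the control and 7 over the roxadustat libraries of day 7 (-2.37 ± 0.57, adjusted p = 0.000995) and 6 in control against 2 in roxadustat libraries at day 21, a ratio of 3.17 in CPM (exact 95% interval 0.567 to 32.1).

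Itgb7 had 12, 8, 1 and 14 counts in control and 3, 6, 3 and 3 in roxadustat libraries at day 7, a call (-1.42 ± 0.52, adjusted p = 0.0268) that was lost in limma voom (adjusted p = 0.213) and without any of 5 single libraries (control replicate 1, 0.0986, or 4, 0.12, and roxadustat replicate 1, 0.0611, 3, 0.0534, or 4, 0.0695). Itgb7 at day 21 (0.458 and 0.474 CPM in control and roxadustat cells) and Itgae on both days (group means of 0.184 to 0.287 CPM) were not called. Itgad, the member that failed the filter on low counts, had 0 counts in both fresh groups, 3 and 5 in control and roxadustat libraries of day 7, and 0 and 11 at day 21. With the control group set at the floor of 3 counts the day 21 ratio is 3.47, higher in roxadustat cells. This ratio leaves out the counting error of the 11 counts and is not a lower bound. Of the exon bases of Itgad 19.7% are shared with other genes. Among them is Cox6a2, which had 178 counts in all libraries against 19 for Itgad. Markers of macrophages and dendritic cells (12 genes) summed to 374 to 385 CPM in control and 37.1 to 41.6 in roxadustat libraries at day 7 and to 311 to 366 and 32.8 to 35.5 at day 21. Of the 11 tested, 10 were lower and 1 higher with roxadustat on each day, and Flt3 was at 0 in both groups of day 21. The part of that shift in the fall of Itgb2, Itgax and Itgam was not tested. Markers of T and NK cells summed to at most 2.99 CPM in culture, with Cd3e and Cd3g at 0 in both arms on both culture days.

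**Figure D5:**
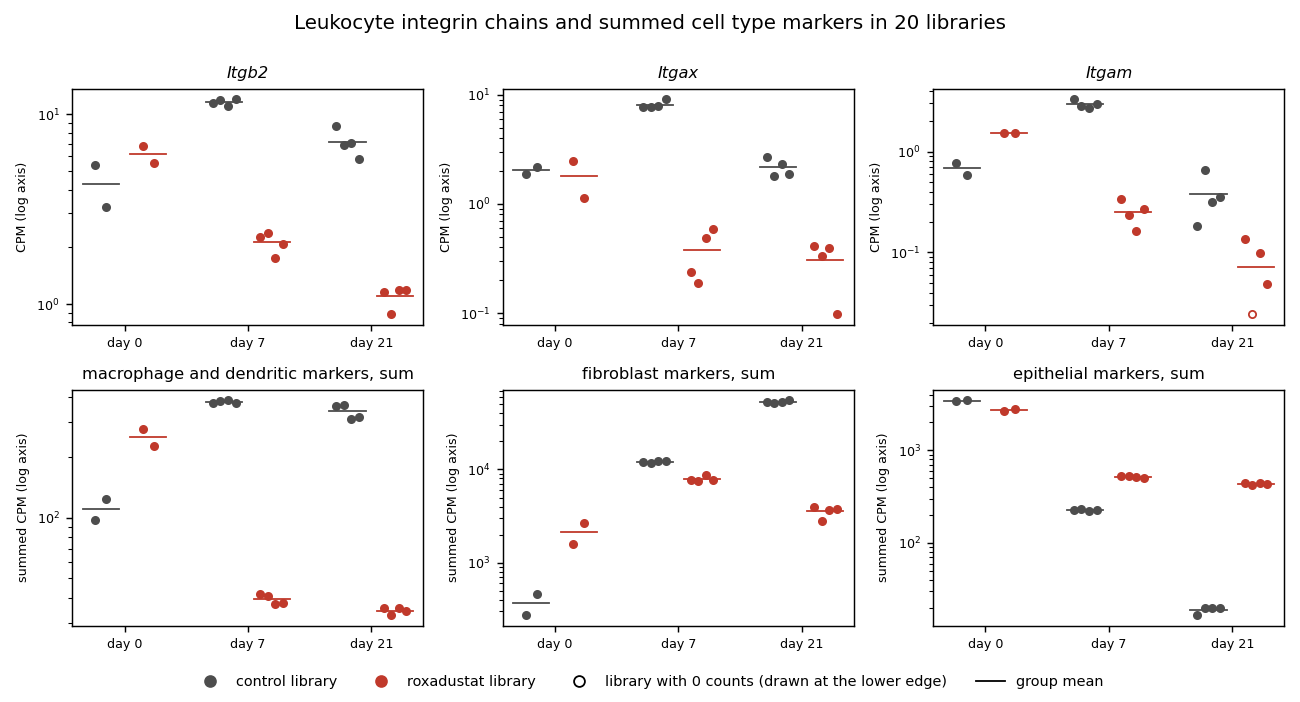
CPM (log axis) of Itgb2, Itgax and Itgam (top) and summed CPM of the macrophage and dendritic, fibroblast and epithelial marker lists (bottom) in each of the 20 libraries by day, control in grey and roxadustat in red, with a bar at each group mean and an open circle for 0 counts. The 3 integrin chains and the macrophage markers are lower in every roxadustat library of day 7 and day 21 than in any control library of that day.

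The difference between the arms was itself different at day 21 and day 7 for 32 of the 40 tested members. In the test of day 21 minus day 7, 17 members were higher and 15 lower (edgeR), against 20.9% and 23.8% of all tested genes. The largest upward shifts on counts above the floor were in Itga3 (4.09 ± 0.10, adjusted p = 1.02e-22), Itga2 (3.65 ± 0.14, adjusted p = 4.2e-18), Lamb3 (3.04 ± 0.29, adjusted p = 1.12e-09) and Lama1 (2.96 ± 0.15, adjusted p = 3.01e-15). The largest downward shifts were in Itga8 (-3.76 ± 0.53, adjusted p = 1.34e-06), Lama2 (-3.12 ± 0.15, adjusted p = 6.48e-13), Lama4 (-2.34 ± 0.14, adjusted p = 2.31e-12) and Ddr2 (-2.01 ± 0.18, adjusted p = 6.58e-08). The called difference itself changed sign in 6 members, and the share of all tested genes that did so was not counted. Of these Itga2, Itga6, Itgb3 and Itgb1 were lower at day 7 and higher at day 21. Lama2 and Lama4 were higher at day 7 and lower at day 21. The day 7 call of Lama2 and both calls of Itgb1 were lost in some of the alternatives given above. Library-size scaling gave 18 members higher and 12 lower in this test and moved the share of higher calls over all genes from 46.8% to 72.2%.

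Most members also changed over time in culture. In control cells 20 members rose and 16 fell from day 0 to day 7, against 37% and 39.5% of all genes. Itgb1 went from 326 and 322 CPM in the fresh libraries to 3596 CPM (3.47 ± 0.08, adjusted p = 1.45e-24), and Itgb3 from 2.21 and 2.44 to 93.1 CPM (5.32 ± 0.11, adjusted p = 3.38e-25). Itgb8 went from 399 and 499.5 to 27.1 CPM (-4.05 ± 0.08, adjusted p = 3.56e-26), and Lama3 from 78.5 and 83.4 to 2.17 CPM (-5.22 ± 0.12, adjusted p = 4.33e-24). The integrin beta chains Itgb1 and Itgb3 rose, and Itgb8 and the epithelial laminin chain Lama3 fell. Itga5, from 5.06 and 5.13 CPM to 329 CPM, had the largest rise (6.01 ± 0.28, adjusted p = 3.38e-12), and Nid1 rose from 20.3 and 35.5 to 1111 CPM. Itgav, which had 2 unlike fresh control libraries (523 and 876 CPM), was not called. In roxadustat cells 17 members rose and 19 fell over the same days, against 37.1% and 37.6% of all genes. Library-size scaling gave 24 rises and 13 falls in control and 20 and 16 in roxadustat cells, and raised the share of higher calls over all genes from 48.3% to 61.6% and from 49.7% to 64.6%. The smallest p-values in roxadustat cells belonged to Itgb8 (-3.67 ± 0.07, adjusted p = 1.95e-25), Itgb3 (4.85 ± 0.11, adjusted p = 2.91e-24), Itgb1 (3.28 ± 0.08, adjusted p = 5.23e-24), Itga6 (-2.43 ± 0.06, adjusted p = 3.94e-23) and Itga3 (3.43 ± 0.10, adjusted p = 3.01e-22).

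From day 7 to day 21 the arms parted. In control cells 16 members rose and 19 fell, against 34.5% and 34.3% of all genes, and 11 of the rises and 12 of the falls were at least 2-fold, against 17.9% and 11.6% of all genes. Library-size scaling gave 15 and 20, with the share of higher calls over all genes at 38.3% in place of 50.1%. Their smallest p-values belonged to Itga3 (-3.73 ± 0.07, adjusted p = 9.97e-25), Itga6 (-2.23 ± 0.06, adjusted p = 8.67e-22), Itgb3 (-2.06 ± 0.06, adjusted p = 4.51e-21), Itga2 (-3.22 ± 0.11, adjusted p = 1.24e-19) and Itga11 (2.40 ± 0.08, adjusted p = 3.08e-18), of which only the last was a rise. Itga8 rose (4.32 ± 0.20, adjusted p = 3.06e-16), as did Lama2 and Nid2 (log2 fold changes 3.08 and 2.63). Itgb6 went from 63 counts to 2 over the 4 libraries, a ratio of 26.7 (exact 95% interval 7.08 to 225). The falls of Itga5 (-0.39 ± 0.14, adjusted p = 0.0231) and Lama5 (-0.38 ± 0.13, adjusted p = 0.0133) were lost without control replicates 1 and 2 of day 21 (log2 fold changes -0.14 and -0.16, adjusted p = 0.368 and 0.263). In roxadustat cells 19 members rose and 11 fell, against 28.6% and 32.9% of all genes. At least 2-fold were 4 rises and 2 falls, against 13.8% and 2.54% of all genes, so the share of members that passed this mark in either direction was near that of all genes. These cells had the smallest p for Itga11 (1.51 ± 0.08, adjusted p = 4.82e-13), Itgb8 (0.80 ± 0.07, adjusted p = 1.44e-10), Itgb4 (1.40 ± 0.12, adjusted p = 1.6e-10), Itga1 (0.55 ± 0.05, adjusted p = 1.74e-10) and Itga7 (-1.02 ± 0.10, adjusted p = 4.23e-09). Itgb5 read 332 and 310.3 CPM on the 2 days (-0.10 ± 0.05, adjusted p = 0.112). The comparisons over time share libraries with the comparisons of the arms, so the values are given side by side and not as independent evidence.

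In fresh cells the fall of Itgal was the only one of the 6 calls of at least 2-fold, so 0 rises and 1 fall of the 40 tested members reached that size, against 1.07% and 0.699% of all genes. Lamb2 read 81.7 and 87.0 and 56.8 and 65.6 CPM (-0.46 ± 0.09, adjusted p = 0.00116), and Itga3 54.3 and 55.5 and 39.9 and 39.6 CPM (-0.47 ± 0.10, adjusted p = 0.00399). Both were lower in both roxadustat libraries than in either control library. Itgal held 56 and 23 counts in control and 15 and 5 in roxadustat libraries (-1.86 ± 0.45, adjusted p = 0.00942). Itgb8 read 399 and 499.5 and 573 and 548 CPM (0.32 ± 0.09, adjusted p = 0.0201), and Nid1 20.3 and 35.5 and 42.6 and 47.6 CPM (0.69 ± 0.17, adjusted p = 0.0157), both higher with roxadustat. When the 4 fresh libraries were fitted alone, no member and 23 genes were called by edgeR. Leaving out control replicate 2 gave 12 member calls, and leaving out roxadustat replicate 1 gave 4. Itgal was lost without control replicate 1 (adjusted p = 0.235) or roxadustat replicate 2 (0.16), and Lamb2 without roxadustat replicate 1 (0.0568). Itgb8 and Nid1 were lost without control replicate 1 or either roxadustat library (adjusted p from 0.0527 to 0.316). Other chains were not called, with Itga6 at 492 and 429 against 408 and 414 CPM (-0.16 ± 0.07, adjusted p = 0.223) and Lamb1 at 341 and 309 against 361 and 377 CPM (0.18 ± 0.07, adjusted p = 0.158). Itgb1 (326 and 322 against 309 and 345 CPM), Itgb6 (513 and 326 against 386 and 401 CPM) and Lamc1 (80.0 and 86.1 against 81.5 and 79.4 CPM) overlapped. Itgam held 12 and 9 counts in control and 23 and 20 in roxadustat libraries (1.14 ± 0.39, adjusted p = 0.0836, not called). In the same libraries 8 of 12 fibroblast markers and 10 of 11 tested macrophage markers were higher with roxadustat and 7 of 12 epithelial and 10 of 12 endothelial markers lower. The endothelial markers summed to 292 to 333 CPM in control and 174 to 183 in roxadustat libraries, with none of the 12 at 0, and the part of these shifts was not tested.

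The other members were not called in fresh cells and are given by level. Among the laminins, Lama5 stood at 188 ± 9.73 CPM in control and 154 ± 4.35 in roxadustat cells, Lama1 at 53.6 ± 0.661 and 48.3 ± 9.10, Lama2 at 12.1 ± 5.99 and 13.1 ± 0.224, and Lama4 at 15.9 ± 3.99 and 21.7 ± 7.38. Lama3 stood at 69.8 ± 2.10 CPM in roxadustat cells, and Nid2 at 17.8 ± 8.24 and 18.1 ± 0.59. Ddr1 was the more abundant collagen kinase by length, at 34.5 ± 1.96 RPKM against 1.18 ± 0.78 for Ddr2 in control cells. Itga1 stood at 133 ± 3.24 and 139 ± 6.17 CPM, Itgb5 at 112 ± 16.1 and 99.2 ± 2.13, Itgb3 at 2.32 ± 0.161 and 2.66 ± 0.76, and Itga5 at 5.10 ± 0.0497 and 6.07 ± 1.09. Itgb4 stood at 4.19 ± 0.78 CPM in control and 3.63 ± 0.455 in roxadustat cells, Itga7 at 9.38 ± 0.507 and 10.1 ± 0.368, and Itga4 at 5.26 ± 0.827 and 4.78 ± 0.667. Itga9 stood at 9.15 ± 0.0957 and 7.78 ± 0.141 CPM, Itga2b at 7.32 ± 1.13 and 6.12 ± 0.905, and Itga8 at 7.88 ± 0.0619 and 6.53 ± 3.99. The chains Itga2, Itga10, Itga11, Itgae and Itgax stood between 0.586 and 2.03 CPM in both fresh groups. Itgb2 stood at 4.31 ± 1.53 and 6.19 ± 0.898 CPM, Itgb7 at 3.43 ± 0.634 and 1.51 ± 0.303, and Lamb3 and Lamc3 between 2.31 and 4.08 CPM. By length, Itgb1 (79.3 ± 0.734 RPKM), Itgav (65.1 ± 23.2), Itgb6 (59.0 ± 18.6) and Itga6 (51.0 ± 4.90) were the most abundant integrin chains of fresh control cells. The spread of Itgav covers the other 3, so its place among them is not fixed. In control cells of day 21 Itgb1 (607 ± 30.1 RPKM) and Itgb5 (205 ± 1.80) led. In roxadustat cells of that day the order was Itgb1 (676 ± 12.5), Itga3 (96.6 ± 5.92), Itgav (88.9 ± 2.66) and Itgb5 (87.3 ± 3.20), the last 2 of which do not differ beyond their spread.

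The genes that work with these receptors were followed through lists of known partners, and no list was tested as a set. For scale, of the 18731 genes in the fit 24.1% rose and 23.6% fell with roxadustat at day 7 (median log2 fold change 0.03). At day 21 these shares were 30% and 32.9% (median 0), and in fresh cells 2.73% and 4.11%. Whether any list departed from these shares was not tested. Of 20 partners in the basement membrane, 9 were higher and 8 lower with roxadustat at day 7 (median log2 fold change -0.05) and again 9 and 8 at day 21 (0.18). Col4a1, the ubiquitous collagen IV chain, was at 8489 ± 124 CPM in control and 2043 ± 81.8 CPM in roxadustat cells of day 21 (-2.05 ± 0.06). Col4a3, a chain of the mature glomerular and tubular membrane, was at 35.1 ± 4.32 and 644 ± 34.0 CPM (4.20 ± 0.08). Npnt, nephronectin, the ligand of Itga8, was higher at 72.9 ± 4.34 against 39.4 ± 4.06 CPM while its receptor chain was lower. Frem2, of the Fraser complex under epithelium, was at 0.452 ± 0.122 and 17.4 ± 0.566 CPM (5.25 ± 0.18).

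Of 16 tested integrin ligands outside the basement membrane, 2 were higher and 8 lower at day 7 and 5 and 8 at day 21 (medians -0.17 and -0.21). Spp1, osteopontin, a ligand of the alpha v chain with Itgb3, was at 694 ± 79.4 CPM in control and 20582 ± 1656 CPM in roxadustat cells of day 21 (4.89 ± 0.09). Vcam1, a ligand of Itga4, was at 543 ± 26.1 and 179 ± 5.07 CPM (-1.60 ± 0.05). Fn1, fibronectin, the ligand of Itga5, stood at 10438 ± 2235 and 10422 ± 1536 CPM and was not called. At day 0 Fn1 (1.29 ± 0.33), Tnc, tenascin-C (2.09 ± 0.37), and Postn, periostin (3.90 ± 0.25), were higher with roxadustat, and Postn is also one of the fibroblast markers. Of 14 tested matrix receptors of other families, 3 were higher and 9 lower at day 7 and 4 and 9 at day 21 (medians -0.45 and -0.77), with Bcam, the epithelial receptor for Lama5, at 36.0 ± 1.28 and 81.8 ± 5.06 CPM (1.19 ± 0.06).

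Of 7 hemidesmosome and tetraspanin partners, 3 were higher and 3 lower at day 7 and 2 and 4 at day 21 (medians 0.17 and -0.48). Of these, Col17a1, which defines true hemidesmosomes, was below 1 CPM in every group mean (0.953 ± 0.272 and 0.648 ± 0.191 CPM at day 21), although Itgb4 rose. Of 29 tested adaptors between integrins and actin, 7 were higher and 14 lower at day 7 and 7 and 16 at day 21 (medians -0.24 and -0.21). Fermt1, the kindlin of epithelium, was at 1.12 ± 0.225 CPM in control and 59.2 ± 3.62 CPM in roxadustat cells of day 21 (5.69 ± 0.11). Fermt3, the kindlin of blood cells, was lower (2.79 ± 0.169 and 1.14 ± 0.186 CPM), and Fermt2, that of most other cells, differed little (219 ± 9.87 and 199 ± 7.21 CPM, -0.14 ± 0.05). At day 0 these lists held 1 rise and 3 falls of 20 basement membrane partners, 4 and 2 of 16 ligands, 3 and 2 of 14 receptors, 0 and 1 of 7 hemidesmosome partners and 0 and 4 of 29 adaptors.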

How the data were processed

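Fresh and cultured mouse kidney cells sorted for Sca-1 were sequenced in 20 libraries. The deposited files hold raw read counts per gene: per the submitters' processing notes the authors used bcl2fastq, STAR 2.5.2a and featureCounts 1.5.0-p1 on mm10, with non-stranded mRNA libraries per the labels' protocols. The annotation release is not given in the sources used here. Of 47729 gene identifiers 47310 matched a symbol in GENCODE M21.

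The counts were fitted with edgeR 4.0.16 (quasi-likelihood, R 4.3.3) over all 6 groups with TMM scaling and filterByExpr, which left 18731 genes, and p-values were adjusted over these by Benjamini-Hochberg. The SE is the log2 fold change divided by the root of the F statistic. RPKM used GENCODE exon lengths. A fold against a group at 0 used a floor of 3 counts over that group and left out the counting error of the other group. Intervals (95%) and floors cover counting error only. Depth was 8502011 to 19903160 counts per library, so genes with a few counts carry wide errors. Alternatives were DESeq2 1.42.0, limma voom 3.58.1, other scalings, filters and thresholds, fewer groups, a replicate block, and libraries left out singly or in pairs. The fit was also run on simulated counts. Far fewer genes were changed there than were called in culture, so that run does not check those comparisons.

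Members are named with their levels, and 1 gene of the set is not reported here. Values per library were given for the members called by smallest p, up to 8 for each comparison of the arms and up to 5 for each over time, and for role partners whose call differs; Npnt, Fermt1 and the other partner genes outside the members were picked as examples with their values seen. Members and lists were chosen with earlier results of these data known. Comparisons of the arms and over time share libraries. Other cell types' markers were taken from textbook lists. No file was left out.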

Additional observations from a re-analysis of the deposited data

Results flagged for a closer look

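Of 156 groups of 4 libraries checked gene by gene with Dixon's test at its 95% critical value, 10 held 1 library that stood apart, and chance alone gives about 1 in 20. Itga4 in roxadustat replicate 3 of day 7 stood at 0.654 CPM and the others of that group at 1.13 to 1.23. Itga7 in control replicate 2 of day 21 stood at 8.34 CPM and the others of that group at 10.9 to 11.4. Itga9 in roxadustat replicate 3 of day 21 stood at 20.6 CPM and the others of that group at 19.5 to 19.6. Itgae in control replicate 3 of day 21 stood at 0.399 CPM and the others of that group at 0.18 to 0.211. Itgav in control replicate 4 of day 7 stood at 735 CPM and the others of that group at 670.0 to 674. Itgax in control replicate 4 of day 7 stood at 9.07 CPM and the others of that group at 7.64 to 7.84. Itgb2 in roxadustat replicate 2 of day 21 stood at 0.888 CPM and the others of that group at 1.16 to 1.19. Itgb3 in roxadustat replicate 4 of day 21 stood at 86.9 CPM and the others of that group at 83.4 to 83.8. Lama2 in roxadustat replicate 4 of day 21 stood at 67.0 CPM and the others of that group at 68.3 to 68.5. Nid1 in control replicate 4 of day 7 stood at 1169 CPM and the others of that group at 1085 to 1098. Leaving out the library in question lost no call of roxadustat against control of that day for these genes.

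The log2 difference between roxadustat and control cells at day 21 minus that at day 7 was called in edgeR for the members given here, each by a test of this difference itself. Among the laminins and nidogens the value was positive for Lamb3 (3.04), Lama1 (2.96), Lama5 (1.48), Lama3 (1.33) and Lamb1 (0.41) and negative for Lama2 (-3.12), Lama4 (-2.34), Nid2 (-1.79), Lamb2 (-1.76), Lamc1 (-1.30) and Nid1 (-0.86). For Itgb1 and the laminin-binding chains the value was positive for Itga3 (4.09), Itga6 (2.54), Itgb4 (2.42) and Itgb1 (0.34) and negative for Itga7 (-0.46). For the collagen receptors the value was positive for Itga2 (3.65) and Itga1 (0.28) and negative for Ddr2 (-2.01), Itga10 (-1.84), Itga11 (-0.89) and Ddr1 (-0.34). For the other integrins the value was positive for Itgb6 (5.09), Itgb3 (2.21), Itgax (1.51), Itgb8 (1.43), Itga5 (0.94) and Itgav (0.55) and negative for Itga8 (-3.76), Itgb5 (-1.01) and Itga9 (-0.77). The value of Itgb6 depends on the prior count, since its day 21 control libraries held 2 counts. The call of Itgax was lost without roxadustat replicate 2 of day 7 (adjusted p = 0.051) or roxadustat replicate 1, 2 or 3 of day 21 (adjusted p from 0.0564 to 0.086), that of Itga7 without control replicates 3 and 4 of day 21 (0.0635) or roxadustat replicates 3 and 4 of day 7 (0.0549), and that of Ddr1 without roxadustat replicates 3 and 4 of day 7 (0.0536). With scaling by library size alone the calls of Ddr1 (adjusted p = 0.665) and Itga7 (0.325) were lost. The epithelial markers shifted upward in the same test in 11 of 12 genes and the fibroblast markers downward in 12 of 12, and their part in these values was not tested.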

How the results depend on the processing

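Over 252 results of members, 5068 of 5309 alternative values kept their direction and their side of the threshold, 214 lost the call, 24 gained it and 3 reversed. The 3 reversals came with scaling by library size alone: the log2 change from day 0 to day 7 of Itga1 became 0.23 in control and 0.063 in roxadustat cells, and that of Lama1 in roxadustat cells 0.16. The median of all genes moved by 0.43 and 0.44 in these comparisons under that scaling, by -0.20 from day 7 to day 21 in control cells and by 0.28 in the difference between days. With upper quartile scaling it moved by 0.11 from day 0 to day 7 in control cells.

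In fresh cells the 6 member calls became 10 without the filter, 0 when only those 4 libraries were fitted and 1 with a fold of at least 2. The 1280 genes called there became 23 with those libraries alone, 610 at an adjusted p of 0.01 and 331 with the fold minimum. A fold of at least 2 left 15 members and 2485 genes at day 7 and 5278 genes at day 21. Over time it left 9317 genes in control cells to day 7, 23 members and 5527 genes from there to day 21, 8728 genes in roxadustat cells to day 7, 6 members and 3056 genes from there to day 21, and 21 members and 3584 genes in the difference between days.

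Leaving out 1 library at a time gave 4 to 12 members and 573 to 1649 genes at day 0, 28 to 30 and 8199 to 8540 at day 7, and 35 to 36 and 11225 to 11551 at day 21. Over time it gave 34 to 39 members and 13512 to 14127 genes in control cells to day 7 and 34 to 35 and 12187 to 12682 to day 21. In roxadustat cells it gave 33 to 36 and 12924 to 13827, then 28 to 30 and 10641 to 11268, and for the difference between days 31 to 33 and 7935 to 8238. The cause of these moves was not tested. At day 0 a library left out leaves 1 in its group, which is assumed to vary like the others.

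Whether replicate numbers in the titles pair the libraries was not settled. The correlation of deviations between same-numbered libraries ran from -0.275 to 0.343 over 42 pairs, and 3 were above 0.1. Such correlations cannot tell whether same-numbered libraries shared an animal or a batch. With the replicate block the members called were 6, 31 and 36 at day 0, 7 and 21, 36 and 35 over time in control cells, 36 and 29 in roxadustat cells and 32 for the difference between days, and 1 member call was lost (Itga2b in roxadustat cells from day 7 to day 21, 0.51, adjusted p = 0.0567). Chains with a few counts per library (Lamc3, Itgb7, Itgal, Itgam, Itgae, Itgad) are limited by depth.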
